A study of Mus musculus with 18 samples.

Results

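The 6 genes described here are the constant genes of the gamma delta T cell receptor and a neighbouring pair of scavenger receptor genes: Trdc, Tcrg-C1, Tcrg-C2, Tcrg-C4, Cd163l1 and 5830411N06Rik. They were taken by gene symbol from a table of 46983 genes, and were chosen by their measured levels in the 4 groups, seen in earlier work on the same libraries. Their own levels and differences are therefore given as a description, with no test. Of the 6, 5 passed a filter on low values, which asked for 10 units or more in 4 libraries or more and kept 9437 genes; Tcrg-C1 reached 10 units in only 2 libraries and did not pass.

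The table holds 18 RNA-seq libraries of mouse CD8 T cells, made with the Smart-seq2 full-length cDNA protocol. Memory-phenotype cells (CD44 high) were profiled from Dock2-deficient mice, labelled Dock2-Hsd/Hsd (Dock2-/-), in 5 libraries, and from wild-type mice in 4 libraries. Naive cells (CD44 low) were profiled from Dock2-deficient mice in 5 libraries and from wild-type mice in 4. DOCK2 activates the small GTPase Rac in blood cells and is needed for lymphocyte migration. The Dock2 allele was present in every cell of those mice and was not restricted to T cells. All samples carry the strain label C57BL/6J, no treatment is given, ages are not stated, and the short sample names of the Dock2-deficient libraries contain C57L6NHsd. A difference between substrains therefore cannot be told apart from a difference between genotypes. Whether each library came from a separate animal is not stated, so the spread between libraries may be partly technical.

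Values are normalized expected counts, that is, estimated read counts divided by 1 scaling factor per library. Libraries held 2215987 to 8257768 estimated reads, of which 37.0% to 69.4% fell on the ribosomal gene Rn18s-rs5, and 1 read was worth 0.512 to 1.81 units. A gene with no read in a library could thus have had a value of up to 1.54 to 5.42 there, the worth of 3 reads (counting error only). The lowest share of that ribosomal gene was in library 5 of Dock2-deficient memory cells and the highest in library 4 of wild-type memory cells. Over the tested genes, wild-type memory library 4 had a median correlation of 0.791 with the other libraries of its group, against 0.905 to 0.912 for those 3. Xist reads marked all wild-type libraries and Dock2-deficient library 1 of each state as female and the other 4 Dock2-deficient libraries of each state as male. Cd8a stood at 612 to 1583 and Cd3e at 1734 to 3240 over all libraries. Cd44 stood at 172 to 222 in Dock2-deficient memory, 124 to 220 in wild-type memory, 0 to 21.7 in Dock2-deficient naive and 3.39 to 9.78 in wild-type naive libraries. Dock2 RNA was present in all groups, at 61.0 to 280 in Dock2-deficient memory and 400 to 844 in wild-type memory libraries, and at 171 to 373 in Dock2-deficient naive and 288 to 514 in wild-type naive libraries.

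A T cell carries either an alpha beta or a gamma delta receptor, each bound to the CD3 chains. The delta genes lie inside the alpha locus, and rearrangement of the alpha locus removes them from that chromosome, whereas the gamma loci stay in the genome of alpha beta T cells. Cd163l1 and 5830411N06Rik encode the membrane receptors SCART1 and SCART2, which carry scavenger receptor cysteine-rich domains and are known in mice from gamma delta T cells, in particular those that make interleukin-17.

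The gamma constant genes differ in how far their reads can be told apart, so the first 120 transcribed bases of each are shown, 5′ to 3′, from the GENCODE M21 transcripts of GRCm38. Capitals mark bases that differ from Tcrg-C1.
Tcrg-C1: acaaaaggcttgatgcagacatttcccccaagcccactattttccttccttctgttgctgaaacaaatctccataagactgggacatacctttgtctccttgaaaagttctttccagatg
Tcrg-C2: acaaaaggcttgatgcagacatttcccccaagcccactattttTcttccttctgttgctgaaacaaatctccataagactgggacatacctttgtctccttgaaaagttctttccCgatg
Tcrg-C4: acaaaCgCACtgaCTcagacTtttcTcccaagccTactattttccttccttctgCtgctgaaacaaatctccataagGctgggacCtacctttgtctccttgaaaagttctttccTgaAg
Over the whole first exon of 330 bases, Tcrg-C2 was 97.3% identical to Tcrg-C1, with 9 differing bases, and Tcrg-C4 was 82.1% identical, with 59 differing bases. Of the stretches of 50 bases in Tcrg-C1, 17.9% occur unchanged in Tcrg-C2, 22.2% in Tcrg-C3 and none in Tcrg-C4. The estimated counts bear the same mark: Tcrg-C4 had a whole number of reads (within 0.005) in all 15 libraries where it had any, Tcrg-C1 in 2 of 13, Tcrg-C2 in 7 of 18 and Trdc in 8 of 18. The sum of Tcrg-C1 and Tcrg-C2 was whole (within 0.015) in 17 of 18 libraries. The split between Tcrg-C1 and Tcrg-C2 is thus uncertain and their sum is given as well.

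The scavenger receptor pair lies on chromosome 7 of mm10, both genes on the plus strand, Cd163l1 at 140218267 to 140231145 and 5830411N06Rik at 140247284 to 140300736, with 16139 bases between them. No stretch of 50 bases is shared between their transcripts, and both had whole numbers of reads in all 14 libraries where they had any. Their start regions, from RefSeq on GRCm38.p6 (250 bases before to 50 after the start, plus strand), are shown because both genes had no read in the same 4 libraries. Capitals mark the letters CANNTG (an E-box).
Cd163l1, chr7:140218017-140218316: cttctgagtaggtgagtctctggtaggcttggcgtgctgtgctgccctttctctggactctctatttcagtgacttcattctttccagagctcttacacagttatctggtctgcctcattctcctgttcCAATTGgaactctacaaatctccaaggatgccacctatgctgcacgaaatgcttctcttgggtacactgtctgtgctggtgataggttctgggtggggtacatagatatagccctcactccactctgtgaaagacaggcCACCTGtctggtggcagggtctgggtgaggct
5830411N06Rik, chr7:140247051-140247350: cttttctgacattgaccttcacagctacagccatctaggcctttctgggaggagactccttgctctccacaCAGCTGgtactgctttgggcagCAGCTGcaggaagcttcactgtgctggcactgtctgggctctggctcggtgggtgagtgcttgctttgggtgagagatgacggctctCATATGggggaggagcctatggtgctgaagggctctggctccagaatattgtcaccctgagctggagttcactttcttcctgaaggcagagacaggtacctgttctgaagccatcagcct
The E-box letters occur in 2 places in the Cd163l1 window and 3 in the 5830411N06Rik window, and 72.3% of 32544 promoter windows hold them. The T-box letters GGTGTGA, the RUNX letters TGTGGT and the ETS letters GAGGAAG, searched on both strands, occur in neither window and in 3.95%, 16.7% and 13.4% of all windows. The table holds 3 windows for 5830411N06Rik, and the first listed is shown.

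Trdc encodes the constant part of the delta chain and lies on chromosome 14 at 54142851 to 54148868, plus strand. Dock2-deficient memory libraries had values of 10.7, 13.6, 6.89, 11.1 and 9.79, and wild-type memory libraries of 8.32, 18.9, 14.6 and 16.6. Dock2-deficient naive libraries had 42.0, 34.0, 19.5, 45.7 and 22.9, and wild-type naive libraries 2.43, 3.63, 4.19 and 5.65. All 5 Dock2-deficient naive libraries lay above every library of the other 3 groups, all wild-type naive libraries lay below every other library, and the memory groups overlapped. The 4 means were 10.4 ± 2.41 in Dock2-deficient memory (SD, n = 5), 14.6 ± 4.54 in wild-type memory (n = 4), 32.8 ± 11.5 in Dock2-deficient naive (n = 5) and 3.98 ± 1.34 in wild-type naive libraries (n = 4). Memory cells therefore held less Trdc RNA than naive cells in Dock2-deficient mice (log2 fold change -1.52 ± 0.35, SE) and more than naive cells in wild-type mice (1.63 ± 0.39). Dock2-deficient naive cells held more than wild-type naive cells (2.73 ± 0.37). The antisense gene Gm43434 and the delta variable gene Trdv5 overlap Trdc on the other strand, and no source used here states that strand was counted. Gm43434 had reads in 1 library, a Dock2-deficient naive one (0.802), and Trdv5 in 7 libraries, at 6.26 or less. Trdv5 averaged 0.355 in Dock2-deficient memory, 0.315 in wild-type memory, 2.06 in Dock2-deficient naive and 0.282 in wild-type naive libraries. The part of such overlapping reads in the Trdc values was not tested. In bulk samples, more cells with a transcript and more transcript per cell cannot be told apart.

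The gamma constant genes, each of which ends its own cluster of variable and joining segments, lie on chromosome 13. Tcrg-C1 (19214103 to 19217024, plus strand) stood at 0, 1.23, 3.85, 2.85 and 7.02 in Dock2-deficient memory cells and at 7.20, 8.41, 17.3 and 14.8 in wild-type memory cells. Naive libraries of Dock2-deficient mice had 6.38, 0, 7.58, 8.04 and 2.16, and of the 4 wild-type ones only library 3 had a read (1.40). The wild-type memory libraries lay above every Dock2-deficient memory library and every wild-type naive library, while the Dock2-deficient groups overlapped each other.

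Tcrg-C2 (19304649 to 19307551, minus strand) stood at 8.88, 6.17, 11.6, 11.6 and 6.72 in Dock2-deficient memory cells and at 22.6, 19.9, 27.8 and 33.3 in wild-type memory cells. Naive libraries had 18.2, 4.76, 6.25, 21.6 and 9.79 in Dock2-deficient and 0.551, 5.42, 1.40 and 2.26 in wild-type mice. Wild-type memory libraries again lay above both Dock2-deficient memory and wild-type naive libraries. The naive groups overlapped, since Dock2-deficient library 2 lay below wild-type library 2.

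Tcrg-C4 (19344558 to 19352756, plus strand), whose reads were whole in every library that had any, stood at 0, 4.94, 8.59, 2.55 and 4.42 in the Dock2-deficient memory libraries. It stood at 10.8, 17.6, 6.45 and 16.6 in wild-type memory cells. Dock2-deficient naive libraries had 10.9, 13.6, 6.66, 12.0 and 6.97, and wild-type naive libraries 0, 0, 1.40 and 3.39. Its naive groups did not overlap, whereas Tcrg-C4 in Dock2-deficient memory overlapped with both Dock2-deficient naive and wild-type memory libraries.

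The sum of the 3 gamma genes averaged 16.1 ± 5.80 in Dock2-deficient memory, 50.7 ± 10.3 in wild-type memory, 27.0 ± 10.8 in Dock2-deficient naive and 3.95 ± 2.36 in wild-type naive libraries (SD, n = 5, 4, 5 and 4). Summed gamma transcripts were lower in Dock2-deficient than in wild-type memory libraries without overlap, with a ratio of means of 0.317. They were higher in Dock2-deficient than in wild-type naive libraries without overlap, with a ratio of 6.83. Without Tcrg-C4, the sum of Tcrg-C1 and Tcrg-C2 averaged 11.99 in Dock2-deficient memory and 37.84 in wild-type memory libraries, without overlap. In naive libraries it averaged 16.95 in Dock2-deficient and 2.76 in wild-type mice, and the groups overlapped. Dock2-deficient naive library 2 (4.76) lay below wild-type naive library 2 (5.42). The lack of overlap between naive groups thus held only with Tcrg-C4 in the sum. In the log2 fits, Tcrg-C2 and Tcrg-C4 differed by -1.44 ± 0.49 and -1.68 ± 0.65 (SE) between Dock2-deficient and wild-type memory cells, and by 1.94 ± 0.49 and 2.57 ± 0.65 between Dock2-deficient and wild-type naive cells. Tcrg-C3, the remaining gamma constant gene in the table, had reads in only 2 libraries, both Dock2-deficient memory, at 2.47 and 1.30. It shares 29.8% of its stretches of 50 bases with Tcrg-C1 and 17.7% with Tcrg-C2, so these reads too are uncertain in their split.

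**Figure D1:**
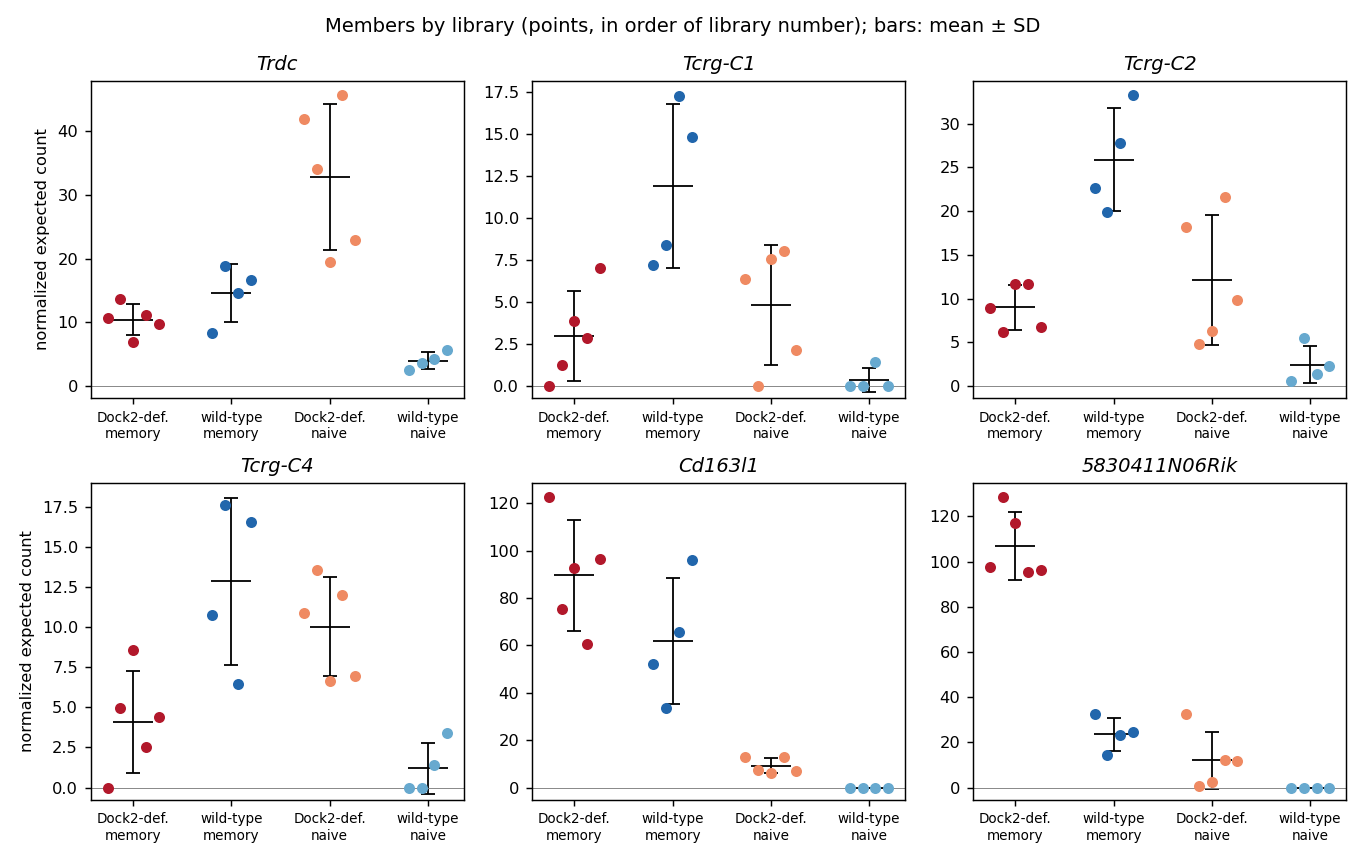
Normalized expected counts (y axes, linear) of the 6 genes in the 4 groups, with 1 point per library and bars for the mean ± SD. Trdc is highest in Dock2-deficient naive libraries, Tcrg-C1 and Tcrg-C2 have their highest means in wild-type memory libraries, and 5830411N06Rik lies between 95.3 and 128 in Dock2-deficient memory libraries, above all others.

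Delta and gamma constants thus ranked the groups differently. The gamma sum per unit of Trdc was 1.73 ± 1.08 in Dock2-deficient memory, 3.69 ± 1.01 in wild-type memory, 0.835 ± 0.188 in Dock2-deficient naive and 0.930 ± 0.523 in wild-type naive libraries (SD, n = 5, 4, 5 and 4). The ratio was above 2.4 in all 4 wild-type memory libraries (2.43 to 4.88) and at most 1.05 in all 5 Dock2-deficient naive libraries (0.540 to 1.05). Beside the alpha constant gene Trac, compared per kilobase of transcript, Trdc amounted to 0.294% in Dock2-deficient memory, 0.433% in wild-type memory, 1.23% in Dock2-deficient naive and 0.140% in wild-type naive libraries, as means. The gamma constants amounted to 1.73%, 6.18%, 4.13% and 0.557% of Trac in the same 4 groups. Trac itself averaged 996 ± 402, 818 ± 48.3, 669 ± 119 and 683 ± 82.7 units. Alpha beta receptor transcripts were therefore far more abundant per length than gamma delta constants in every group. Wild-type naive libraries had only 2.01 to 5 estimated Trdc reads each, and at most 1, 3 and 3 reads of Tcrg-C1, Tcrg-C2 and Tcrg-C4. The ratio and percentages of that group are thus uncertain from counting error alone.

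Cd163l1 stood at 122, 75.3, 92.8, 60.4 and 96.4 in Dock2-deficient memory cells and at 52.2, 33.4, 65.7 and 96.2 in wild-type memory cells. It stood at 12.7, 7.47, 6.14, 12.8 and 6.97 in Dock2-deficient naive cells and had no read in any wild-type naive library. The memory groups overlapped with each other, both lay above all naive libraries, and every Dock2-deficient naive library lay above every wild-type naive one. Its mean in Dock2-deficient naive cells, 9.23 ± 3.28 (SD, n = 5), was at least 12.2-fold higher than the limit of 0.756 that 3 reads over the 4 wild-type naive libraries set. On the same limit it was at least 81.9-fold higher in wild-type memory than in wild-type naive cells. Between Dock2-deficient memory and naive cells the log2 fold change was 3.16 ± 0.33 (SE).

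5830411N06Rik stood at 97.6, 128, 117, 95.3 and 96.4 in Dock2-deficient memory cells and at 32.3, 14.5, 23.2 and 24.5 in wild-type memory cells. It stood at 32.7, 0.679, 2.56, 12.0 and 11.9 in Dock2-deficient naive cells and had no read in any wild-type naive library. Unlike Cd163l1, its 2 memory groups did not overlap: the mean was 4.53 times as high in Dock2-deficient as in wild-type memory cells (log2 fold change 2.17 ± 0.59, SE). Dock2-deficient naive libraries were at least 15.9-fold higher, as a mean, than the limit in wild-type naive libraries, but they ranged from 1 read in library 2 to 36 reads in library 1.

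The balance within the pair followed genotype in memory cells. The value of 5830411N06Rik per unit of Cd163l1 was 1.27 ± 0.381 in Dock2-deficient memory libraries (0.797 to 1.70, SD, n = 5) and 0.415 ± 0.154 in wild-type memory libraries (0.255 to 0.619, n = 4), with no overlap. Being a ratio within a library, it is free of the scaling between libraries. In Dock2-deficient naive libraries it spread from 0.0909 to 2.57, and it has no value in wild-type naive libraries.

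**Figure D2:**
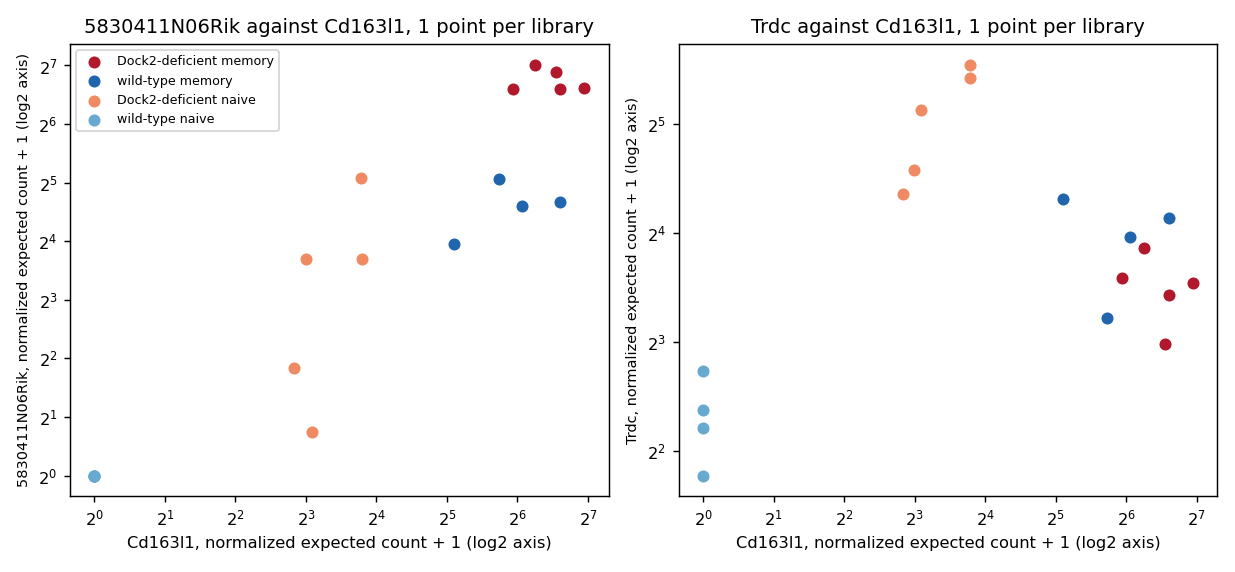
Values of 5830411N06Rik (left) and Trdc (right) against Cd163l1, 1 point per library, as normalized expected count + 1 on log2 axes. Dock2-deficient memory libraries lie above wild-type memory libraries on the left, and Dock2-deficient naive libraries lie highest on the right.

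Per library, the genes were high together only in part. Among the 5 Dock2-deficient naive libraries, Trdc and Cd163l1 gave the same order from high to low, libraries 4, 1, 2, 5 and 3. Their ratio stayed between 3.17 and 4.55. Cd163l1 had only 14, 11, 12, 16 and 7 reads in libraries 1 to 5, so its order is not resolved between libraries with close values. No other pair of the 6 genes shared an order in that group. Library 4 was the highest or the next after it for each of the 6 genes. Library 2 departed from the others: it had the highest Tcrg-C4 (13.6) but the lowest Tcrg-C1, Tcrg-C2 and 5830411N06Rik. In the memory groups the 6 genes shared no common order, and Trdc per unit of Cd163l1 was 0.0743 to 0.183 in Dock2-deficient and 0.159 to 0.566 in wild-type libraries, well below that in Dock2-deficient naive libraries.

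Set against memory cells of the same genotype, the Dock2-deficient naive level was 316% of the memory mean for Trdc and 245% for Tcrg-C4, but 10.3% for Cd163l1 and 11.2% for 5830411N06Rik. In wild-type mice the naive level was 27.2% of the memory mean for Trdc, 9.30% for Tcrg-C4 and 0% for both scavenger receptor genes. Of 55 listed genes tested in Dock2-deficient against wild-type naive cells, 1, Tbx21, was called. Among the genes most like Cd163l1 across libraries, Ccl5, a chemokine gene, rose by 3.50 ± 0.52 (log2, SE, adjusted p = 0.0016, limma) and Cxcr3, a chemokine receptor gene, by 3.37 ± 0.45 (adjusted p = 6.5e-04) in that contrast. Ccl5 and Cxcr3 were picked for their likeness to Cd163l1, itself chosen for its levels in these groups, so a rise was partly built in. Their p-values are therefore no independent test. Both calls were lost with a sex term and with only the compared libraries in the fit. Genotype and sex cannot be fully told apart. Other genes of memory cells had values below 0 there, among them Klrk1 (-0.98 ± 0.57), Klrd1 (-0.94 ± 0.31), Ccr2 (-0.10 ± 0.58) and Cd44 (-0.84 ± 0.55). Still others had values above 0, among them Slamf7 (1.84 ± 0.50), Eomes (0.82 ± 0.46), Klrc1 (0.55 ± 0.45) and Il2rb (0.50 ± 0.26). None of these was called. For the 10 genes of the interferon-gamma producing programme, listed below, the median in that contrast was 0.47, against 0.00 over all tested genes. The T-box factor gene Tbx21 reached 13.4% of its memory mean in Dock2-deficient and 1.46% in wild-type naive cells, and Ccl5 reached 1.47% in Dock2-deficient and 0.190% in wild-type naive cells. Cxcr3 reached 14.1% in Dock2-deficient and 1.45% in wild-type naive cells, and Il2rb 15.2% in Dock2-deficient and 8.15% in wild-type naive cells. Cd44, the sorting marker, stood at 3.09% of its memory mean in Dock2-deficient and 3.43% in wild-type naive cells. Dock2-deficient naive library 2 had the highest Ccl5 (103), Tbx21 (81.5) and Cd44 (21.7) of its group. The part of memory cells within the naive gate in these values was not tested.

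Across the table, the log2 fit with limma (adjusted p under 0.05, Benjamini-Hochberg) counted 3 of the 5 tested members in memory against naive cells of Dock2-deficient mice, Trdc lower and the scavenger receptor pair higher. The background there was 266 of 9437 genes, 2.82%. In memory against naive cells of wild-type mice it counted all 5 as higher, where 1.88% of all genes were called higher. In Dock2-deficient against wild-type naive cells it counted 3, Trdc, Cd163l1 and 5830411N06Rik, all higher, where 0.127% were called higher. In Dock2-deficient against wild-type memory cells it counted 0, where 0.053% were called; in that fit 1546 genes had an unadjusted p under 0.05. For the difference between the genotypes' memory effects it counted 1, Trdc, lower, where 0.0212% were called lower. The members were picked with these contrasts known, so nothing is read from the counts. Several of these calls changed when 1 library was left out: Trdc in the last contrast was called in only 2 of 18 fits that left out 1 library, and 5830411N06Rik in naive cells in only 2 of 9.

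Without overlap between groups, and leaving Tcrg-C1 aside, 3 of the 5 members differed in memory against naive cells of Dock2-deficient mice, where 3.93% of tested genes did. All 5 were higher in this way in wild-type mice (4.99% of tested genes), 4 were higher in Dock2-deficient against wild-type naive cells (1.46%) and 2 differed in Dock2-deficient against wild-type memory cells (4.44%). The median log2 fold change of the 5 members was -0.23, 3.15, 2.73 and -0.43 in these 4 comparisons, against -0.01, -0.02, 0.00 and 0.01 over all tested genes. Scaling the libraries without Rn18s-rs5 and mitochondrial genes shifted that median over all genes to -0.32 in Dock2-deficient memory against naive cells. The split of called genes there was 167 higher and 99 lower as deposited, and 95 higher and 158 lower after this scaling. The median shifted to -0.27 in Dock2-deficient against wild-type memory cells. All member differences in these 4 comparisons kept their direction under that scaling.

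**Figure D3:**
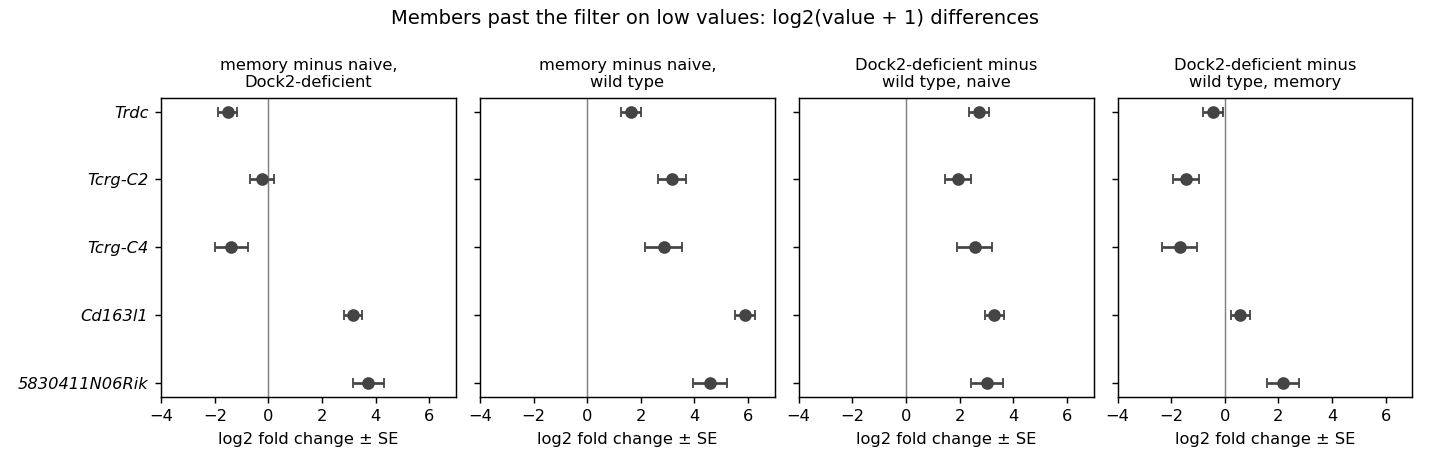
Log2 fold change ± SE (x axes) of the 5 tested members in the 4 comparisons, from values with 1 unit added. Trdc lies at -1.52 in Dock2-deficient and 1.63 in wild-type memory against naive cells; for Cd163l1 and 5830411N06Rik, comparisons with wild-type naive cells, where both had no read, depend on the added unit.

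The genotypes also differed in sex. In naive cells, the female Dock2-deficient library had Trdc at 42.0 and Cd163l1 at 12.7, and the 4 male ones had 19.5 to 45.7 and 6.14 to 12.8, all above the female wild-type libraries (2.43 to 5.65 and 0). For 5830411N06Rik the female Dock2-deficient naive library stood at 32.7 and the male ones at 0.679 to 12.0, against 0 in the female wild-type libraries. In memory cells the female Dock2-deficient library had 5830411N06Rik at 97.6 and the male ones 95.3 to 128, against 14.5 to 32.3 in the female wild-type libraries.

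Other receptor segments carried few reads. The table holds 21 other gamma and delta segments, of which 11 had a read in any library and none passed the filter. Their summed value was 5.16 to 14.8 in Dock2-deficient memory, 11.6 to 22.7 in wild-type memory, 8.83 to 18.01 in Dock2-deficient naive and 1.81 to 6.44 in wild-type naive libraries. The gamma variable gene Trgv2 was the most abundant in wild-type memory libraries, at 11.4, 9.48, 7.73 and 9.62, against 0, 1.81, 0 and 0 in wild-type naive libraries. The gamma variable gene Tcrg-V4 had no read in any wild-type naive library and 0.679 to 3.98 in the 5 Dock2-deficient naive libraries. Delta variable gene Trdv2-2 averaged 0.354 in Dock2-deficient memory, 2.57 in wild-type memory, 4.48 in Dock2-deficient naive and 2.31 in wild-type naive libraries. Trdv1 averaged 1.45, 1.23, 0.882 and 0.695 in the same groups. Of 10 variable segments that the alpha and delta chains share, 1 was tested and 0 were called (limma, with 1 unadjusted p under 0.05 over the 5 contrasts). Of the 7 alpha beta receptor and CD3 genes, all tested, 0 were called in any of the 5 contrasts (3 unadjusted p under 0.05).

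Genes of the programmes that gamma delta T cells are known to follow were compared next, from lists that hold no member. Of 24 genes linked to interleukin-17 producing gamma delta T cells, 5 were tested. Sox13, Blk and Maf, which belong to that programme, averaged at most 0.801 in any group, and Il17a had no read in any library. In memory against naive cells the chemokine receptor gene Ccr2 rose in both genotypes, by 4.58 ± 0.54 in Dock2-deficient mice (SE, adjusted p = 1.4e-05) and 3.76 ± 0.61 in wild-type mice (adjusted p = 5.5e-04). Actn2, an actinin gene, fell in both, with -3.07 ± 0.43 in Dock2-deficient (adjusted p = 1.2e-04) and -2.71 ± 0.49 in wild-type mice (adjusted p = 0.0018). Cxcr6, another chemokine receptor gene, fell in Dock2-deficient mice (-1.41 ± 0.35, adjusted p = 0.028), a call lost under 8 of 19 alternatives (-1.72 to -1.16), among them leaving out Dock2-deficient memory library 2, 3 or 4 or naive library 2, 4 or 5. The list median was -0.44 in Dock2-deficient and -0.82 in wild-type mice.

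Of 10 genes of the interferon-gamma producing programme, which memory CD8 T cells share, 7 rose and 0 fell in memory against naive cells of either genotype. The list median was 2.32 in Dock2-deficient and 3.35 in wild-type mice, against -0.01 and -0.02 over all genes. Tbx21 rose by 2.92 ± 0.36 in Dock2-deficient mice (SE, adjusted p = 2.0e-05) and by 6.21 ± 0.40 in wild-type mice (adjusted p = 2.0e-09). The NK receptor gene Klrc1 rose by 5.71 ± 0.42 (adjusted p = 1.9e-08) in Dock2-deficient and 6.55 ± 0.47 (adjusted p = 1.1e-08) in wild-type mice, and Il2rb, the beta chain of the interleukin-2 and interleukin-15 receptors, by 2.77 ± 0.24 (adjusted p = 1.5e-07) in Dock2-deficient and 3.63 ± 0.27 (adjusted p = 1.5e-08) in wild-type mice. Slamf7, an activating receptor gene, rose by 2.44 ± 0.48 (adjusted p = 0.0037) in Dock2-deficient and 4.79 ± 0.53 (adjusted p = 4.7e-06) in wild-type mice; in Dock2-deficient mice the call was lost with 0.1 units added (1.70 to 2.74 over 19 alternatives). Klrk1, the NKG2D gene, rose by 2.45 ± 0.54 (adjusted p = 0.011) in Dock2-deficient mice, a call lost under the replicate block and after scaling without Rn18s-rs5 and mitochondrial genes, and by 3.17 ± 0.60 (adjusted p = 0.0031) in wild-type mice. The interferon-gamma gene Ifng rose in wild-type mice (3.53 ± 0.87, adjusted p = 0.028), a call lost under 8 of 16 alternatives (1.33 to 5.47), among them leaving out any 1 wild-type memory library or naive library 1 or 2. Tbx21 was the only listed gene called in Dock2-deficient against wild-type naive cells (2.82 ± 0.38, adjusted p = 6.5e-04), a call lost with a sex term or with only those libraries in the fit. It was also the only listed gene called for the difference between the genotypes' memory effects (-3.29 ± 0.54, adjusted p = 0.029), and that call was lost under 17 of 26 alternatives (-3.80 to -2.25), 13 of them with 1 library left out. It held without Dock2-deficient memory library 4, wild-type memory library 1, Dock2-deficient naive library 1 or 3, or wild-type naive library 1. Tbx21 is also among the genes most like Cd163l1, which was chosen for its levels in these groups. Its p-values in both contrasts are therefore no independent test. Of 55 listed genes tested in Dock2-deficient against wild-type memory cells, 0 were called (limma, with 13 unadjusted p under 0.05).

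Of 9 genes of intraepithelial lymphocytes, 4 were tested, with 2 higher and 1 lower in memory against naive cells of either genotype. Itgae, the CD103 integrin chain, fell in both (-6.05 ± 0.50, adjusted p = 5.8e-08, in Dock2-deficient and -4.52 ± 0.56, adjusted p = 2.1e-05, in wild-type mice). The signalling adaptor gene Fcer1g rose in both (2.96 ± 0.62, adjusted p = 0.0067, in Dock2-deficient and 4.44 ± 0.69, adjusted p = 3.5e-04, in wild-type mice). The receptor gene Cd160 rose in wild-type mice (2.18 ± 0.38, adjusted p = 0.0016). The granzyme gene Gzma rose in Dock2-deficient mice (2.45 ± 0.65, adjusted p = 0.045), a call lost under 15 of 19 alternatives (1.11 to 3.32); of the single libraries, only without Dock2-deficient memory library 3 or naive library 4 did it hold. Of 18 genes of gamma delta lineage choice, 16 were tested. Egr2, a factor induced by receptor signals, fell in Dock2-deficient memory against naive cells (-2.07 ± 0.44, adjusted p = 0.0084) and Lef1 fell in both genotypes (-0.86 ± 0.20, adjusted p = 0.018, in Dock2-deficient and -0.92 ± 0.23, adjusted p = 0.028, in wild-type mice), and Id3 rose in wild-type mice (1.13 ± 0.28, adjusted p = 0.031). The Lef1 call was lost without Dock2-deficient memory library 2 or 3 or naive library 1 or 5 (-1.19 to -0.76 over 19 alternatives) in Dock2-deficient mice. In wild-type mice it was lost without memory library 1, 2 or 3 or naive library 1, 3 or 4 (-1.06 to -0.81 over 17), and the Id3 call without any 1 memory library or naive library 1 or 3 (1.02 to 1.25). Of 15 other genes of the scavenger receptor cysteine-rich family, 4 were tested and 0 were called in any contrast (limma, with 10 unadjusted p under 0.05 over the 5 contrasts); Cd5 and Cd6, receptors of T cells, were among them, and Cd163 had reads in 1 library.

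Markers of other cells that a CD8 gate could hold were looked at as whole lists. Of 9 NK-cell genes, some of which also stand in the lists above, 5 were tested, and 4 rose and 0 fell in memory against naive cells of either genotype (limma, all 5 at an unadjusted p under 0.05). Among them were the NK receptor gene Klre1 (4.06 ± 0.50 in Dock2-deficient and 4.79 ± 0.56 in wild-type mice) and, in wild-type mice, Klrb1c (3.64 ± 0.80), whose call was lost without wild-type memory library 2 or with 0.1 units added (1.46 to 5.52 over 16 alternatives). The T-box factor gene Eomes rose by 1.86 ± 0.43 in Dock2-deficient and 2.89 ± 0.49 in wild-type mice; in Dock2-deficient mice its call was lost with no filter, after scaling without Rn18s-rs5 and mitochondrial genes and with only the compared libraries. The granule gene Nkg7 rose in Dock2-deficient mice (1.21 ± 0.27), a call lost without Dock2-deficient memory library 3 or naive library 3 or with only the compared libraries (0.89 to 1.38 over 19 alternatives). The sum of the 9 genes was 1233 to 3543 in Dock2-deficient memory, 1151 to 1519 in wild-type memory, 569 to 1008 in Dock2-deficient naive and 502 to 879 in wild-type naive libraries. Nkg7 made up most of it, with means of 1897, 1140, 766 and 667 in these groups, where the sum averaged 2020.5, 1329, 794 and 679. The sum therefore mainly follows that 1 gene and does not measure NK cells. Ncr1, which defines NK cells, averaged 0.681 in Dock2-deficient memory and 2.72 in wild-type memory libraries and had no read in naive libraries.

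Of 9 genes of NKT and MAIT cells, 3 were tested; 1 rose in Dock2-deficient and 2 rose in wild-type memory against naive cells, with the interleukin-18 receptor gene Il18r1 in both (1.78 ± 0.36 in Dock2-deficient and 2.19 ± 0.40 in wild-type mice). The Dock2-deficient call of Il18r1, the only one there, was lost after scaling without Rn18s-rs5 and mitochondrial genes. The sum of the 9 genes was 61.1 to 214 in Dock2-deficient memory, 129 to 229 in wild-type memory, 21.8 to 56.7 in Dock2-deficient naive and 45.1 to 77.2 in wild-type naive libraries. Il18r1 was the largest part of it in the memory groups, with means of 99.2 in Dock2-deficient and 140 in wild-type mice. Trav11d averaged 3.03 in Dock2-deficient memory, 1.53 in wild-type memory, 0.775 in Dock2-deficient naive and 0.609 in wild-type naive libraries, and Trav1 1.45, 1.16, 0.541 and 0.872 in the same 4 groups; each had reads in 13 libraries. Trav11, Traj18 and Traj33 were at 0 in all libraries, but the 60 alpha joining segments in the table summed to 0.512 at most in any library, so a joining segment at 0 says nothing about such cells. The factor gene Zbtb16 averaged 0.414 at most in any group. The part of such cells in the member values was not tested.

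Of 4 genes of CD4 T cells, 0 passed the filter, and their sum was 27.95 or less in every library. Of 4 B-cell genes only Cd79b passed; it averaged 25.5 in Dock2-deficient memory, 33.3 in wild-type memory, 39.8 in Dock2-deficient naive and 40.9 in wild-type naive libraries, while Cd79a averaged at most 1.05 in any group. Of 5 myeloid entries, 1 passed, an entry named Itgam that GENCODE M21 names Gm49368 and that overlaps Itgam; it was not called in any contrast (limma, with 1 unadjusted p under 0.05). The myeloid sum was 8.88 to 44.5 in Dock2-deficient memory, 5.80 to 15.4 in wild-type memory, 5.66 to 23.3 in Dock2-deficient naive and 5.71 to 26.6 in wild-type naive libraries. That 1 entry made up most of the sum, with means of 21.7, 7.47, 7.67 and 10.8 in these groups. Lyz2 averaged at most 3.23 in any group. Rag1, needed for receptor rearrangement, had no read in any library, and of 6 genes of immature thymocytes only Cd1d1 passed, with a mean of 22.2 to 29.9 over the groups.

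No tested gene around the scavenger receptor pair was called. Within 500 kb of Cd163l1 the table holds 41 other genes, of which 5 were tested, Tubgcp2, Zfp511, Echs1, Paox and Mtg1, all upstream. Their log2 fold changes ran from -0.90 to 0.71 in memory against naive cells of wild-type mice and from -0.68 to 0.37 in Dock2-deficient against wild-type naive cells. The lowest adjusted p among them in any contrast was 0.35 (limma). The closest tested gene, Mtg1, has its middle at -74.1 kb from the start of Cd163l1, so nearer genes were not tested. Of the 19 olfactory receptor genes in that range, 3 had a read in any library. Among them Olfr524, at -16.0 kb, had reads in 7 libraries and did not pass the filter. It averaged 0.768 in Dock2-deficient memory, 3.29 in wild-type memory, 0.160 in Dock2-deficient naive and 0 in wild-type naive libraries.

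**Figure D4:**
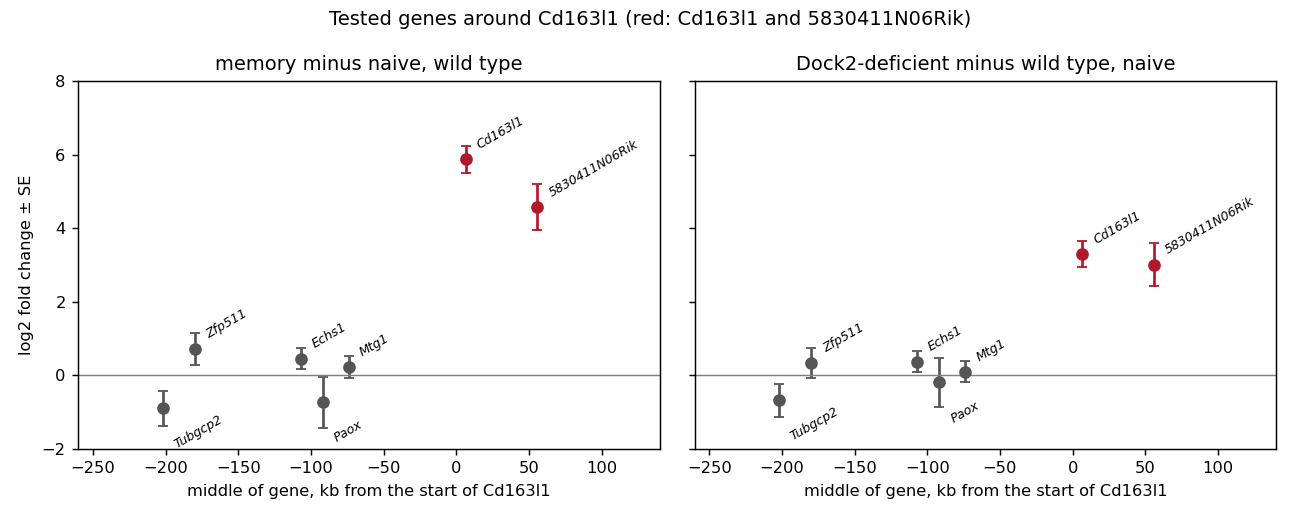
Log2 fold change ± SE (y axis) of the tested genes within 500 kb of Cd163l1, by the distance of their middle from the start of Cd163l1 in kb (x axis), for memory against naive wild-type cells and for Dock2-deficient against wild-type naive cells. The 5 neighbours lie between -0.90 and 0.71, below Cd163l1 and 5830411N06Rik in both panels.

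Over the 18 libraries, the tested genes most like Trdc, by Pearson correlation of log2 values, were Cd7 (0.843), E2f2 (0.727), Pcgf6 (0.722), Myo1g (0.718) and Fchsd1 (0.700). Those most like the gamma sum were Zfp119a (0.882), Zranb2 (0.817), Plcb3 (0.776), Serinc3 (0.772) and Gpsm1 (0.772). Those most like Cd163l1 were Ccl5 (0.959), Cxcr3 (0.953), Tbx21 (0.950), S100a6 (0.941) and 5430427O19Rik (0.939). The correlations describe libraries that share groups and scaling factors and carry no test. Cd7, a surface receptor of T cells, averaged 128 in Dock2-deficient memory, 166 in wild-type memory, 192 in Dock2-deficient naive and 106 in wild-type naive libraries. Cxcr3, a chemokine receptor of memory cells, averaged 391 in Dock2-deficient memory, 284 in wild-type memory, 55.3 in Dock2-deficient naive and 4.11 in wild-type naive libraries.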

How the data were processed

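Per the labels' protocols, total RNA came from a Qiagen RNAeasy kit and libraries from Smart-seq2. The submitters' processing notes name bcl2fastq, FastQC, RSEM and the mm10 build. The deposited signal values are RSEM expected counts divided by 1 factor per library, which was recovered from the most frequent value; on that scale 59.5% to 69.3% of values were whole reads, so no count test was run. How the factors were set is not given in the sources used here.

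Genes that reached 10 units in 4 or more libraries were tested on log2(value + 1) with limma 3.58.1 (R 4.3.3, trend, 14 residual degrees of freedom) in 1 fit over 18 libraries, two-sided, with Benjamini-Hochberg adjustment at 0.05. The added unit understates changes of low genes. The script was tested on simulated data. Gene positions came from GENCODE M21, which held 98.9% of the identifiers. The members and gene lists were chosen with earlier results of these data known. Named from each list are the called genes, at most the 5 with the largest change per direction and contrast, and up to 4 defining genes. Klrd1, Slamf7, Eomes, Klrc1 and Il2rb in naive cells, Trav11d, Trav1, Trdv2-2, Trdv1 and Olfr524 were added after their values were seen. Alike genes are the 5 with the highest correlation. No libraries were duplicates: replicates differed by a chi-square of at least 5.04 per degree of freedom. Values of some listed genes are not reported here.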

Additional observations from a re-analysis of the deposited data

Results flagged for a closer look

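Trdc differed with memory in opposite directions in the 2 genotypes: all Dock2-deficient memory libraries lay below all Dock2-deficient naive ones, and all wild-type memory libraries lay above all wild-type naive ones, with a difference between the 2 memory effects of -3.16 on the log2 scale. Because Trdc was chosen for its pattern, this difference is a description. Tbx21 differed between the genotypes in the same contrast (-3.29, adjusted p = 0.029, limma), a call lost under 17 of 26 alternatives, 13 of them with 1 library left out. Since Tbx21 is among the genes most like Cd163l1, that p-value is no independent test. Tcrg-C1 in wild-type naive libraries had 1 library, library 3, apart from the rest at 1.40, which is 1 read against none in the other 3. Of 22 groups of libraries looked at, 1 stood out in this way. The rule is set to flag about 1 in 20 by chance. With 1 read against none in the rest, a group is flagged by construction, so that rate does not apply here.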

How the results depend on the processing

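Of 475 recomputed member fold changes, 442 stayed within 1 SD of the libraries and 33 moved further; 2 of the 475 had the other sign. The 2 were Tcrg-C2 in Dock2-deficient memory against naive cells without Dock2-deficient naive library 4 (0.01) and 5830411N06Rik in the difference of memory effects with 10 units added (0.86). The added unit moved genes with no read in wild-type naive cells most: Cd163l1 in Dock2-deficient against wild-type naive cells was 6.47 with 0.1 and 0.93 with 10 units added. The cause was not tested.

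Calls near the threshold changed. The Trdc call in Dock2-deficient memory against naive cells was lost without Dock2-deficient memory library 3 or naive library 1 or 4. In wild-type mice it was lost under 8 of 17 alternatives: without memory library 2, 3 or 4 or naive library 1 or 2, with 10 units added, with only the compared libraries and without the 2 libraries that stand apart. That of Tcrg-C4 was lost under 10 of 16: without memory library 1, 2 or 4 or naive library 1 or 2, with 0.1 units, no filter, the replicate block, only the compared libraries and without those 2. In naive cells the 5830411N06Rik call was lost under 13 of 17: without Dock2-deficient library 1, 4 or 5 or any 1 wild-type library, with 10 units, no filter, rescaling, a sex term, only the compared libraries and without those 2. The Cd163l1 call there was lost with 10 units. In memory cells 5830411N06Rik was called with only the compared libraries in the fit (2.17) or with 10 units added (1.82). Of 46 calls of named genes that are no members, 30 held under all alternatives and none reversed.

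Counts of called genes in memory against naive cells ran from 203 to 321 in Dock2-deficient and from 185 to 214 in wild-type mice when 1 library was left out. In Dock2-deficient against wild-type naive cells, 13 genes became 3 with a sex term, 8 with only the compared libraries and 9 to 19 without 1 library. In memory cells, 5 genes became 3, 16, 10, 3, 0 and 3 with 0.1 units, 10 units, no filter, a minimum of 20, a sex term (598 at an unadjusted p under 0.05) and only the compared libraries, and 3 to 13 without 1 library. For the difference of memory effects, 3 genes (1 higher, 2 lower) became 0 with no filter (1005 unadjusted), 1 with a minimum of 20, 0 under the replicate block (473 unadjusted), 0 without memory libraries 5 of Dock2-deficient and 4 of wild-type mice, chosen after seeing the data (337 unadjusted), 0 to 2 without 1 library, and 2 (both lower) after rescaling. Whether libraries of the same number share an animal is not stated; 3 of 9 such pairs correlated above 0.1 (-0.253 to 0.303) and 3 of 9 correlated best with their own number, so the numbers were not used as pairs and pairing remains unknown. The replicate block changed the Dock2-deficient count to 218 and the wild-type count to 196. Depth limits the gamma constants most: over all 18 libraries Tcrg-C1 had 102 estimated reads, Tcrg-C4 153 and Tcrg-C2 239.6, against 701 for Cd163l1.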
